A study of Talpa occidentalis with 2 samples.

Results

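The myosin heavy chains of striated muscle are described here as gene models in the annotation of the Iberian mole, Talpa occidentalis. The genes were taken by symbol: MYH1, MYH2, MYH3, MYH4, MYH6, MYH7, MYH8 and MYH13, with copy suffixes removed from the model names. All 8 symbols had a model, out of 16075 distinct symbols in the annotation, and together they carried 12 of its 23336 gene models. The series itself measured contacts of the FGF9 promoter by 4C-seq in 1 hindlimb library and 1 forebrain library of wild-type embryos at embryonic day 15, to find the regulatory domain of that gene. The labels do not say whether tissue of several embryos was pooled. The gene annotation of build talOcc3 belongs to neither library and holds no expression or contact values, so what follows concerns gene structure in 1 assembled genome, without replicates and without a test between tissues.

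A myosin heavy chain is the motor of the thick filament. Its head binds actin and splits ATP, and its long tail pairs with that of another chain into a coiled coil that packs into the filament. Mammals use different heavy chains in different fibre types and at different ages, so the isoform present is a standard measure of muscle fibre type. In human and mouse the genes for the fast and developmental skeletal isoforms lie side by side, and the pair of cardiac genes lies elsewhere.

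The fast and developmental genes formed 1 block on scaffold 25. It ran from 19151841 to 19441379, a length of 290 kb, and its 6 main models all lay on the minus strand. From the lower to the higher coordinate the order was MYH13, MYH8, MYH4, MYH1, MYH2 and MYH3, so that in the direction of transcription the embryonic gene MYH3 came first and the extraocular gene MYH13 last. Of the 5 neighbouring pairs of main models, 5 were those of the human order as written from general knowledge, and 5 of 5 shared a strand. Among all neighbouring models in the annotation 52.2% did. That share counts additional models too, whereas the plus-strand MYH1 model described below was left out of the 5 pairs. No model of another symbol lay inside the block. The main model of a symbol here is the one with the highest score that the authors deposited for its match to a named target.

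MYH13, which encodes the heavy chain of extraocular and laryngeal muscle, lay at 19151841 to 19198217 with 37 coding exons and 5928 coding bases. Its span of 46.4 kb was the longest of the 8. MYH8, the perinatal isoform, followed at 19218054 to 19244279 with 38 coding exons and 5823 coding bases. MYH4 encodes the fast isoform IIb, and its model at 19267312 to 19293264 had 38 coding exons and 5700 coding bases, the shortest coding length of the 8. MYH1, for isoform IIx, lay at 19307614 to 19331350 with 38 coding exons and 5820 coding bases.

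MYH2, for the fast oxidative isoform IIa, lay at 19335871 to 19359391 with 38 coding exons and 5826 coding bases. MYH3, the embryonic isoform, lay at 19419958 to 19441379 with 39 coding exons and 6024 coding bases. Exon number therefore differed little within the block, and the spans of the 5 genes other than MYH13 lay between 21.4 and 26.2 kb. EVM, which merges predictions and alignments into a consensus, was the source of all 6 models.

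Spacing within the block was uneven. MYH1 and MYH2, the closest pair, had 4.52 kb between their edges, which in all members are the edges of coding sequence. The gap between MYH2 and MYH3 measured 60.6 kb and held 0 gene models. Between these extremes, 14.3 kb parted MYH4 from MYH1, 19.8 kb parted MYH13 from MYH8 and 23.0 kb parted MYH8 from MYH4. Set against the 20408 gaps between models in the annotation, whose median was 16.3 kb, the MYH2 to MYH3 gap was equalled or exceeded by 22.8% and the MYH1 to MYH2 gap by 77.1%. Models filled 57.8% of the block and coding exons 12.1% of it.

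The flanks of the block differed. Beyond MYH13, GAS7, which was first described as a growth-arrest gene, ended at 18946722, leaving 205 kb without a model, a gap equalled or exceeded by 7.59% of all gaps. RCVRN, the photoreceptor calcium sensor recoverin, and GLP2R, the receptor for glucagon-like peptide, came next. Beyond MYH3, SCO1 began after 23.3 kb. SCO1 helps to deliver copper to cytochrome c oxidase, and it was followed by ADPRM, a nucleotide phosphatase gene, and by TMEM220. MYH10, a non-muscle myosin heavy chain, lay on the same scaffold, 1.24 Mb below MYH13.

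**Figure D1:**
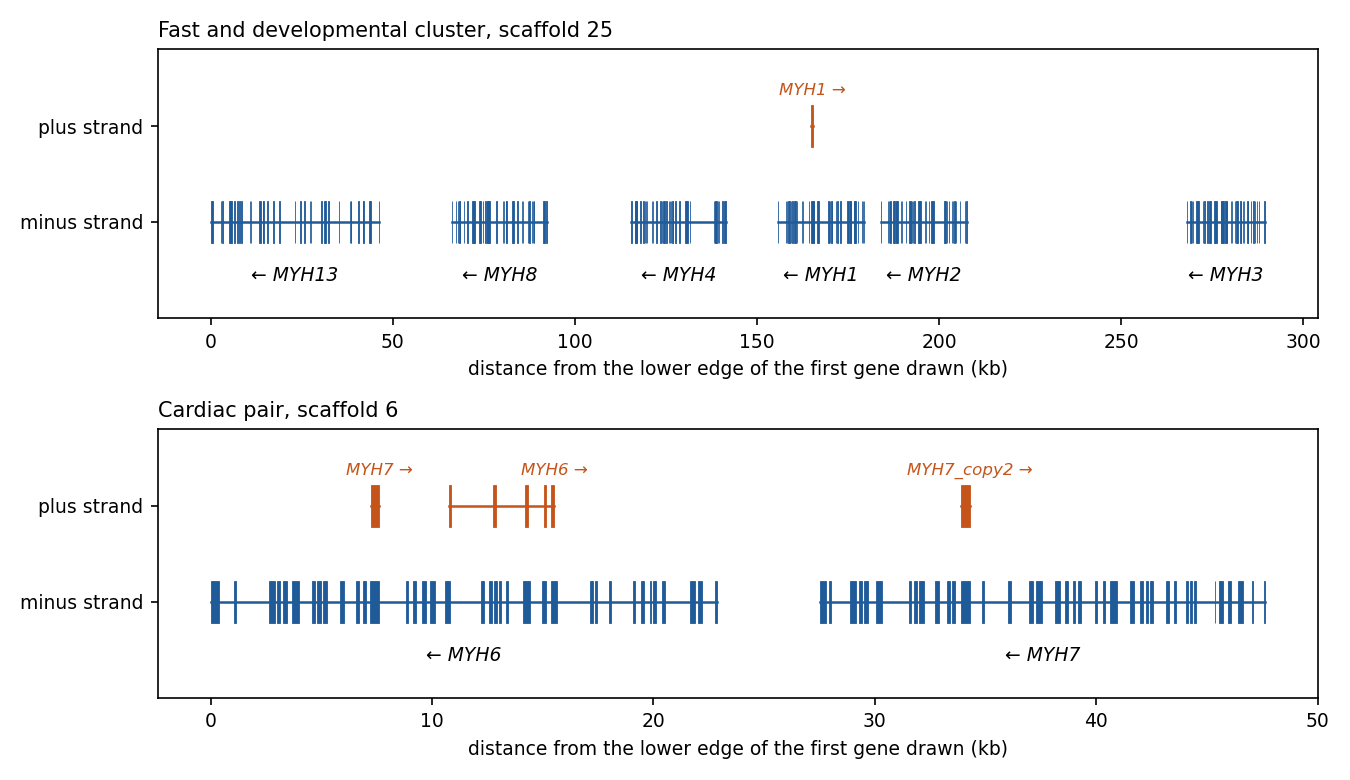
Positions of the models of the 8 symbols, in kb from the lower edge of the first gene drawn, with coding exons as boxes, main models in blue on the minus strand and additional models in orange on the plus strand. The 6 genes of the upper panel span 290 kb with the widest gap, 60.6 kb, between MYH2 and MYH3, and in the lower panel MYH6 and MYH7 are 4.67 kb apart.

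The cardiac pair lay on scaffold 6. MYH6, which encodes the alpha heavy chain of the heart, ran from 3291461 to 3314339 on the minus strand, with 37 coding exons and 6273 coding bases, the longest coding length of the 8. MYH7, which encodes the beta heavy chain of the heart and of slow skeletal fibres, ran from 3319005 to 3339085 on the same strand, with 39 coding exons and 5985 coding bases. The edges of the pair were 4.67 kb apart, with MYH7 first in the direction of transcription, as in the human order. CMTM5 lay 2.43 kb below MYH6 on the plus strand, followed by the cytokine gene IL25 and the adaptor gene EFS. NGDN, on the plus strand 14.7 kb above MYH7, was followed by the homeobox gene ZFHX2 and by THTPA, a thiamine triphosphatase gene. These cardiac neighbours lay much nearer than GAS7 lay to MYH13.

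Coding length was a multiple of 3 in 8 of 8 main models. The median was 5877 bases, or 1959 codons, against 1011 bases over all 23336 models. The median number of coding exons was 38, against 5 over all models, and only 1.25% to 1.48% of all models had as many coding exons as a given member. The genes were less unusual in span: for MYH7, the shortest at 20.1 kb, 28.5% of all models were as long or longer, and for MYH13 13.3% were.

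Exon lengths were shared across the family. The coding exons of each main model were aligned in order to the 38 coding exons of MYH2, and 24 of the 38 had the same length, to the base, in 8 of 8 genes. The reading phase was also the same at 24 of these 24. They hold 61.6% of the MYH2 coding bases. The longest unbroken run was exons 16 to 24, 9 exons of 88, 118, 124, 137, 256, 243, 177, 146 and 91 bases. Within the 6 genes of the block, 31 exons were equal in all, and exons 26 to 36 formed a run of 11.

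Pairs of genes within the block had between 32 and 36 exons of equal length, with a median of 33 over 15 pairs. MYH8 and MYH2 had 36, as had MYH1 and MYH2. The 12 pairs of a block gene with a cardiac gene had between 25 and 33, with a median of 28.5. MYH6 and MYH7 had 28 in common, fewer than the 33 that MYH7 had in common with MYH8. The lower counts of MYH6 went with joined or unaligned exons in its model, described below, and these values carry no test because the genes are not replicates.

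**Figure D2:**
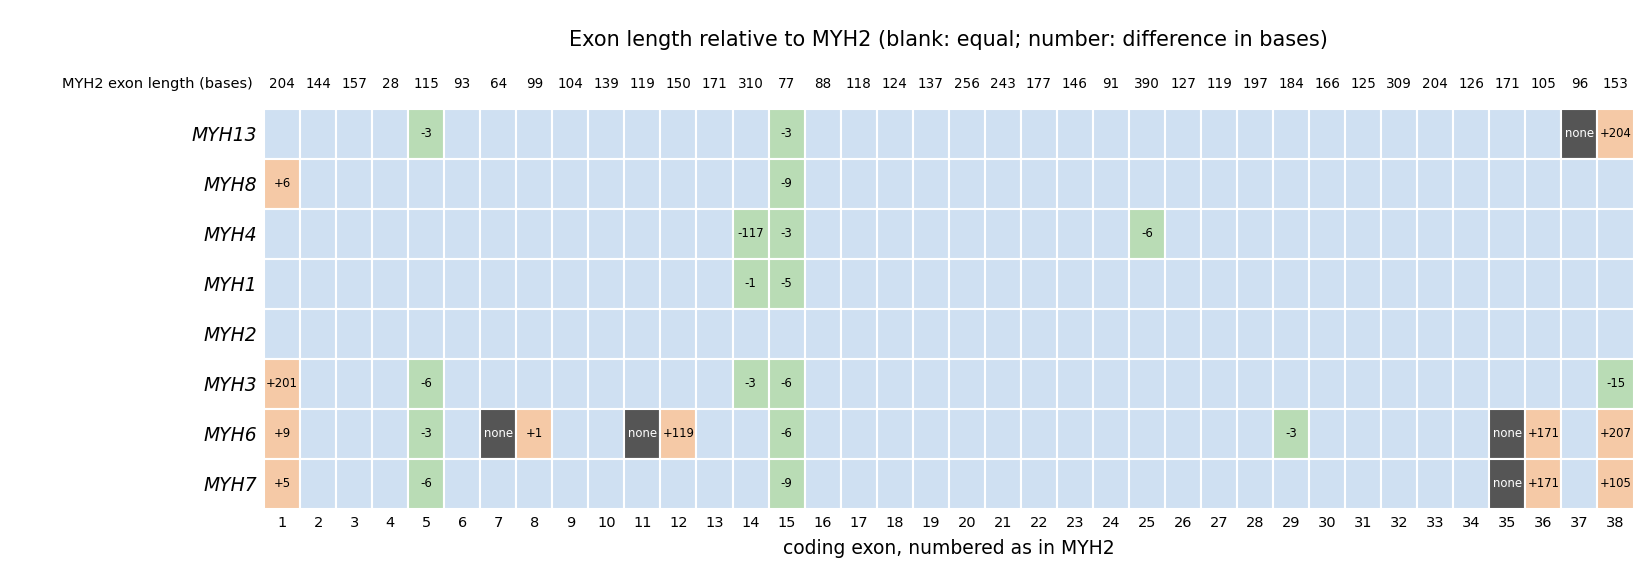
Length of each coding exon in 8 genes minus that of the MYH2 exon aligned to it, in bases, with MYH2 lengths in the top row, blank cells where lengths are equal and dark cells where no exon was aligned. The cells are blank in every gene at 24 of 38 positions, and most differences lie at exons 1, 5, 14, 15 and at the end, with further ones in MYH6.

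Differences inside the series were concentrated at a few exons. Exon 5, which begins after 533 coding bases in MYH2, had 115 bases in MYH1, MYH2, MYH4 and MYH8, 112 in MYH13 and MYH6, and 109 in MYH3 and MYH7. Exons 14 and 15, which begin after 1587 coding bases, summed to 387 bases in MYH2, 384 in MYH13, 381 in MYH1 and MYH6, and 378 in MYH3, MYH7 and MYH8, with MYH4 described below. The steps were whole codons, from 129 in MYH2 to 126 in MYH3, MYH7 and MYH8. As background, the myosin head carries a pair of flexible surface loops that are known to differ in length between isoforms. Protein sequence was not used here, so the loops were not placed on these exons.

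MYH4 departed from this pattern. Its exon 14 had 193 bases where MYH2 had 310, a difference of 117 bases or 39 codons that kept the reading frame, and its exon 25 had 384 bases where the 7 other genes had 390. The transcript match of MYH4 covered 5820 target bases but 5700 bases of the model, whereas in MYH1 both lengths were 5820. Whether the mole gene or only this model lacks the difference was not tested. The deposited score of MYH4 was 5927, or 1.02 per target base. The other 7 genes had between 1.24, in MYH6, and 1.49, in MYH1. The sources used here do not state how the authors calculated the score. MYH4 also held the longest intron of the 8, 6420 bases after exon 9.

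MYH1 differed by a junction. Its exons 14 and 15 had 309 and 72 bases where MYH6, with the same sum, had 310 and 71. All other exons of MYH1 had the MYH2 length. MYH8 had 2 exons that differed from MYH2, the first with 210 bases against 204, and exon 15 with 68 against 77.

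In both cardiac models a single exon of 276 bases stood where the genes of the block had separate exons of 171 and 105 bases, which also sum to 276. MYH6 had 1 further joined place, where an exon of 269 bases stood for exons 11 and 12, which sum to 269 in MYH2. No exon of MYH6 was aligned to exon 7 of MYH2, which has 64 bases, and an exon of 100 bases was aligned to exon 8, which has 99. Over exons 7 and 8 together the MYH6 model was thus 63 bases or 21 codons shorter. MYH7 kept exons 7, 8, 11 and 12 apart, at the lengths of the block genes.

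The ends of the models varied most. MYH3 had a first exon of 405 bases, 201 longer than that of MYH2, and its last 2 exons had 138 and 27 bases in place of 1 exon of 153. MYH13 ended in an exon of 357 bases where MYH2 had exons of 96 and 153, and none of its exons was aligned to the former. MYH6 began with 2 exons of 99 and 207 bases and MYH7 with 2 of 45 and 19 bases that had no counterpart in MYH2, and their last exons had 360 and 258 bases. In these 4 models part of the transcript lay outside the deposited match. At the low-numbered end it was 262 bases in MYH13, 225 in MYH6, 122 in MYH7 and 0 in MYH3. At the high-numbered end it was 302 in MYH6, 195 in MYH3, 45 in MYH7 and 0 in MYH13. The high-end lengths can be set beside the coding starts, but with a different stretch in each gene, so this is no test. The 45 bases equal the first exon of MYH7 in length, without its exon of 19 bases. The 195 are near the surplus of 201 in MYH3. The 302 are near the first 2 exons of MYH6 together. The numbering direction is not stated. If the high end is the coding start, the unmatched bases of MYH13 lie in its last exon. The MYH3 exons of 138 and 27 bases then lie inside the match. Whether the added stretches are transcribed was not tested.

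Introns, in contrast to exons, differed widely in length between the genes. At the 29 intron positions that could be aligned in 8 of 8 genes, the longest intron was between 3.44 and 77.3 times as long as the shortest, with a median of 15.8 times. MYH13 stood apart from the rest of its block: its median intron had 862.5 bases, against medians of 122 to 262 bases in the 5 others, and it had the longest intron of the 6 at 16 of 35 positions. Its introns summed to 40.4 kb, against 15.4 kb in MYH3 and 20.4 kb in MYH8.

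Very short introns were frequent. Of 296 introns in the 8 genes, 80 (27.0%) had at most 100 bases, against 6.37% of the 149323 introns of all EVM models. In the block they made up 71 of 222 (32.0%), and in the cardiac pair 9 of 74 (12.2%). MYH2 had 14 of 37 and MYH6 4 of 36. The shortest, in MYH3, had 72 bases. The median over the 8 genes was 273 bases, against 1116 over all EVM models.

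**Figure D3:**
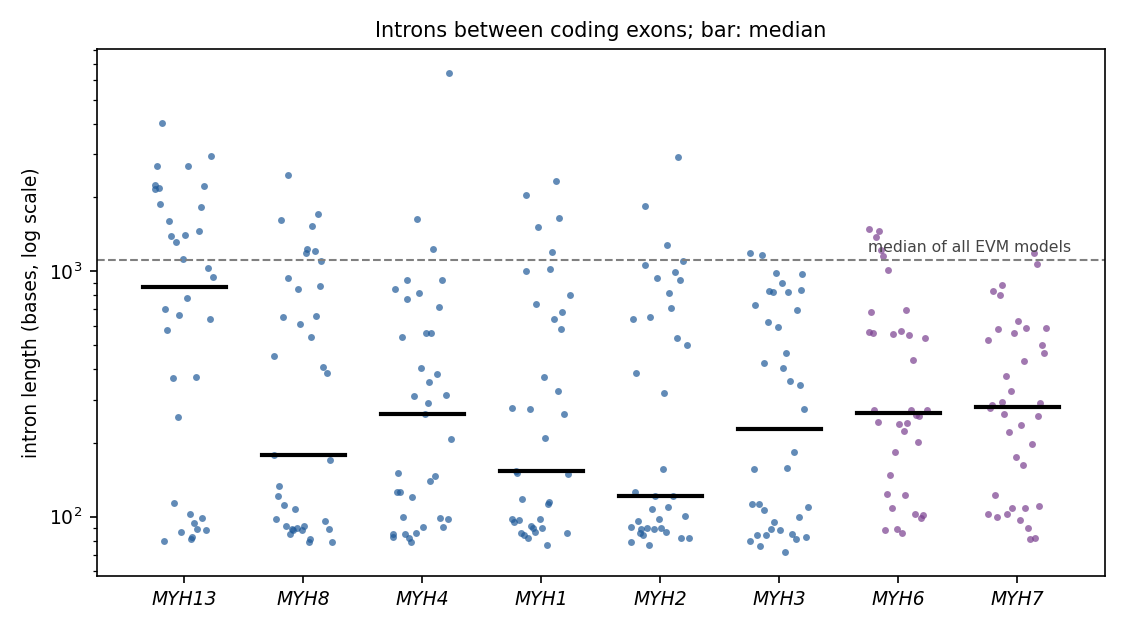
Length of every intron between coding exons, in bases on a log scale, for the 6 genes of the block in blue and the 2 cardiac genes in purple, with a black bar at each gene's median and a dashed line at 1116 bases, the median of all EVM models. MYH13 has the highest median, 862.5 bases, and MYH2 the lowest, 122 bases.

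Of the 8 symbols, 3 had at least 2 models, MYH1, MYH6 and MYH7, where 14.6% of all symbols did. The additional models numbered 4. Each came from exonerate, an aligner of proteins or transcripts, and each lay on the plus strand inside a main model on the minus strand. The additional MYH1 model, at 19316832 to 19317206, had 1 exon of 375 bases, of which 100% lay on the coding bases of exon 25 of MYH1. MYH7_copy2, at 3325362 to 3325745, had 1 exon of 384 bases, of which 380 lay on the 390-base exon of MYH7 that aligns with exon 25 of MYH2.

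The model named MYH7 without a suffix on the plus strand, at 3298688 to 3299071, lay not in MYH7 but in MYH6. It also had a length of 384 bases in 1 exon, and 380 of them lay on the corresponding exon of MYH6. The additional MYH6 model, at 3302213 to 3306993, had 5 exons and 663 coding bases, of which 522 (78.7%) lay on coding exons of MYH6 between its exons 12 and 20. Thus 3 of the 4 covered 1 and the same exon of the family, exon 25 in MYH2 numbering. Among all exonerate models in the annotation, these 4 included, 106 of 5944 (1.78%) lay at least in part on coding bases of the opposite strand.

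The match records of these 4 models also ran the other way. Their transcript positions were numbered downward along the target, from 257 to 3 in MYH1, from 260 to 3 in both MYH7 models and from 480 to 259 in MYH6, whereas those of the 8 main models were numbered upward. Downward numbers occurred in 24 of the 21473 models with a recorded match (0.112%). The additional models scored 1.54% to 1.87% of the main model of their symbol, but these scores cover unlike matches. In the additional MYH1 model 85 target positions were matched to 255 transcript bases. In the main MYH1 model 5820 target positions were matched to 5820. The percentages therefore do not measure relative support. They shared 1 protein identifier in their model names, which 4 models in the annotation carried. No member had a second multi-exon model on its own strand, and none was split over 2 models. Counted without the 4, each of the 8 genes had 1 model.

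**Figure D4:**
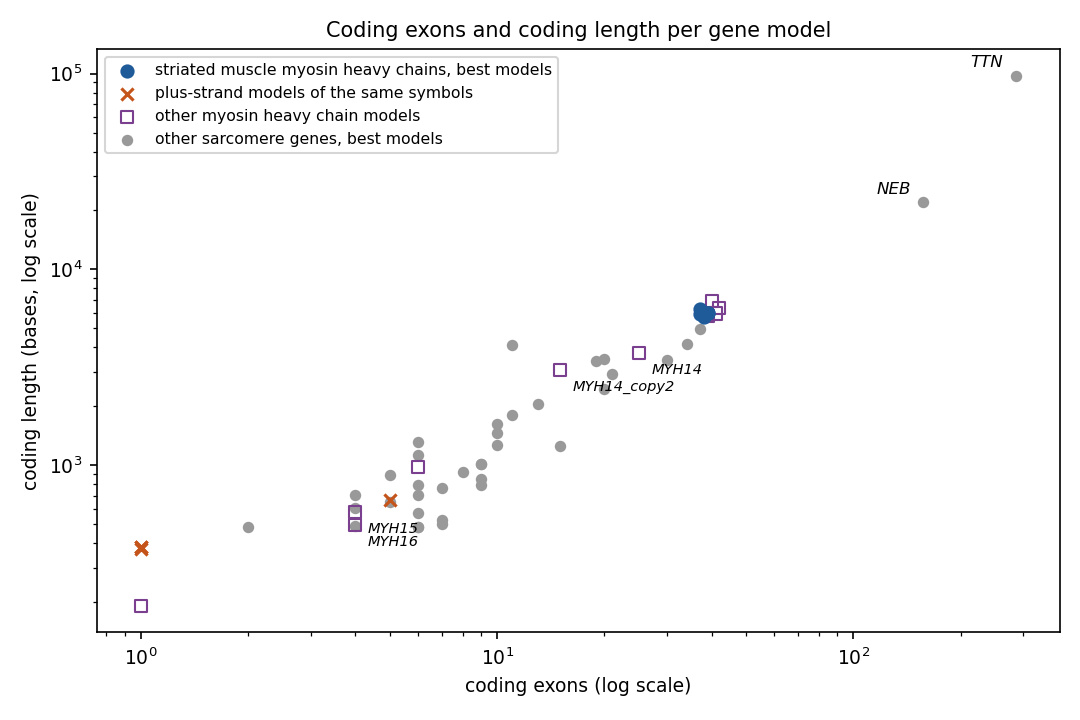
Number of coding exons against coding length in bases, both on log scales, for the main models of the 8 genes, their 4 plus-strand models, the models of 7 other myosin heavy chains and the main models of 37 other sarcomere genes. The 8 main models sit together at 37 to 39 exons and 5700 to 6273 bases, and the plus-strand models sit at 1 or 5 exons.

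Other myosin heavy chains showed how far the exon series extends. MYH7B, a slow-type chain of muscle and brain, lay on scaffold 2 with 42 coding exons and 6360 coding bases, and 30 of the 38 MYH2 exons had a counterpart of equal length in it. MYH9 and MYH10, which encode non-muscle chains, and the smooth muscle gene MYH11 had 6 each, with 40, 41 and 39 coding exons. The non-muscle gene MYH14 had 25 coding exons in 1 model and 15 in MYH14_copy2, 1.09 kb further on the same strand, and these matched separate parts of the target. MYH10 had 2 further models on small scaffolds, of 6 and 1 coding exons. MYH15 and MYH16 had only 4 coding exons each, with 579 and 498 coding bases. In human, MYH16 is known as a disrupted gene of jaw muscle.

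The exon lengths of the members were also searched for in the whole annotation. A run of 4 consecutive exon lengths of any main model was found in 9 of 13919 models with at least 4 coding exons, which were the 8 main models and MYH7B. The successive exons of 157 and 28 bases, exons 3 and 4 of MYH2, were found in 13 models, all of them myosin heavy chains: the 8 members, MYH7B, MYH9, MYH10, MYH11 and the first MYH14 model. The members were chosen by name and the run lengths were read from them, so this describes how far the series recurs and is no test.

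Of 40 other genes of the sarcomere, listed from general knowledge, 37 had a model. Their median was 9 coding exons and 1023 coding bases, against 38 exons and 5877 bases in the members. Titin (TTN, 286 coding exons) and nebulin (NEB, 157) exceeded every member, and MYOM1 (37), MYOM3 (34) and MYBPC1 (30), all proteins that bind or link the thick filament, came next. ACTA1, which encodes skeletal muscle actin, TNNI2, a fast troponin I gene, and TPM2, a tropomyosin gene, had no model under these symbols.

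At least 2 models were found for 7 of the 37 (18.9%), against 14.6% of all symbols and 3 of 8 members. Among the 7 were ACTN3, MYBPC2, MYBPC3, MYOM2, MYL4 and LDB3. In 7 of these 7, all models of the symbol lay on 1 scaffold and 1 strand. Of their 11 model pairs, 9 matched separate target parts, and the other 2 overlapped by 12 bases in MYBPC2 and 2 in LDB3. MYBPC2, a fast muscle thick-filament protein gene, was spread over 3 models with 9, 13 and 4 coding exons, and MYBPC3, its cardiac relative, over 2 with 9 and 21. The additional models of the members, on the opposite strand inside the main model, had another layout.

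Names and neighbours were also read from RefSeq's table for MPIMG_talOcc4v2.1, a later build of the mole genome. It lists 2 of the 8 members by symbol, MYH13 and MYH6, against 36 of the 40 sarcomere genes and 5 of the 7 other heavy chains. Between MYH13 and ADPRM it places 6 protein-coding genes, all without a symbol, where the deposited annotation has 6 EVM models, MYH8, MYH4, MYH1, MYH2, MYH3 and SCO1. It also places 1 long non-coding RNA gene there. Between MYH6 and NGDN it has 1 protein-coding gene without a symbol, where the deposited annotation has 1 EVM model, MYH7. Between GAS7 and MYH13 it has 1 long non-coding RNA gene and 1 pseudogene, where the deposited annotation has 0 models. With exonerate models counted, 7 deposited models follow MYH13 before ADPRM by lower edge, and 4 follow MYH6 before NGDN, including those inside MYH6, so the numbers were equal only for EVM models. RefSeq's table does not give the identity of the unnamed genes.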

How the data were processed

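The series holds 2 libraries of 4C-seq, 1 per tissue, and the submitters' processing notes name BWA, without a version. Contact values were not analysed here, and sequencing depth is unknown. The table used was the deposited gene annotation of build talOcc3, with models from EVM, exonerate and a source named ALN per the file's second column. Positions are first and last bases counted from 1. The deposited score belongs to each transcript's match with a named target, and its calculation by the authors is not stated there.

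Symbols were model names without copy or low-confidence suffixes, and each gene was joined to its 1 transcript by name, strand and position. Coding exons and coding length came from coding records, which define the whole span of each member. Exon length series were aligned globally (3 for equal lengths, 1.5 within 15 bases, -0.5 otherwise, -1 per gap). The annotation has no replicates, so values are descriptions and no test was run. Routines were tested on simulated data and recovered 200 of 200 planted exon counts. The simulated pairs differed in exon length only, so the alignment of joined, missing or added exons was not tested. Python 3.11.15 was used. Members and lists were chosen with earlier results of these data known, and human gene order and the lists came from general knowledge. The text names all models of the 8 symbols, the 3 nearest models on each side of a block, the 7 other heavy chains, and sarcomere genes without a model, with at least 2, or among the 5 with most exons. Some genes that this rule takes are counted but not reported here by name. No mole sequence was used here, so none is printed. Alternatives changed suffixes, minimum coding length, scaffolds, merging, edges, exon tolerance and the aligned gene.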

Additional observations from a re-analysis of the deposited data

How the results depend on the processing

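The number of models, 12, was 11 without suffixed names and 12 with at least 300 coding bases, with separate target parts merged or on scaffolds of at least 1 Mb. It was 8 without models of downward match numbers, an alternative chosen after seeing the data, which is 1.5 times lower. The limits of 300 bases and 1 Mb could remove no model, since the shortest has 375 coding bases and both scaffolds are longer. From start to start, the median distance in the block was 46.1 kb in place of 19.8 kb, by construction. That of the cardiac pair was 24.7 kb in place of 4.67 kb, also by construction. Coding edges gave the same gaps because the model edges are the coding edges. Median coding length was 5819 bases by matched target against 5877. Merging records under 10 bases apart could not change the median of 38 exons, since the shortest intron has 72 bases. Exons equal in 8 genes numbered 26 within 3 bases and 24 when aligned to MYH7, chosen after seeing the data, against 24. The share of neighbouring models on 1 strand was 50.8% for models of at least 2 coding exons, against 52.2%, and the cause was not tested. Block order by RefSeq was not run, since 5 of its 6 symbols are not listed there. No paired analysis was possible because there is 1 library per tissue and no value belongs to either. Assembly and model quality limit all positions.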

Other observations

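Downward match numbers, seen in the plus-strand models of MYH1, MYH6 and MYH7, occurred in 20 models of other symbols. Among these, named after their values were seen, HSPA1A, a heat shock protein gene, had 3 such models and ITPR3, a calcium release channel gene, had 2. Of all 24, 22 came from exonerate.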
